A study of Mus musculus with 26 samples.

Results

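The effect of SAG on gene expression in cultured GLI1+ cells of the mouse RPE/choroid was described from 2 group means per gene. SAG is a small molecule that binds and activates Smoothened, the membrane protein that carries the Hedgehog signal into the cell. The cells had been sorted as GFP+ from pooled female Gli1GFP/+ mice, in which GFP is made under the endogenous Gli1 promoter from 1 allele, so these cells keep 1 functional Gli1 allele. They were labelled SWR/J, while the paper states that the line, made in that strain, was outcrossed to BALB/c and then intercrossed. The sorted cells were expanded over a few passages, starved of serum overnight and then exposed to SAG at 100 nM or to its vehicle DMSO for 24 h. Each arm has 3 libraries (6 of the 26 samples of the series), which come from the same expanded pool of sorted cells. The members are all genes of the table with at least 1 FPKM (fragments per length of transcript and per depth of the library) in the higher group and a value above 0 in both groups, which held for 10317 of the 17623 listed genes. Only the authors' mean of each arm was used, so no spread between libraries, no p-value and no depth can be given for any value here, and a difference is described by its size alone. A gene is called higher or lower with SAG when the 2 means differed by at least 2 times.

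Hedgehog ligands bind Patched 1 and thereby release Smoothened, which lets the GLI transcription factors activate target genes. Gli1, Ptch1 and Hhip are classical targets, and the last 2 encode proteins that dampen the pathway again. Interferon-stimulated genes encode antiviral proteins and are switched on by transcription factors that bind the interferon-stimulated response element in promoters. In the choroid, stromal cells between the vessels are the cells that express Gli1.

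Most genes had nearly the same mean in both arms. The median log2 ratio of SAG to DMSO was 0.06, 90% of genes lay between -0.35 and 0.35, and 96.2% differed by less than 1.5 times. Genes called higher numbered 33 (0.320% of the 10317) and genes called lower numbered 121 (1.17%). The median fold of the higher genes was 2.51 and that of the lower genes 3.26, and 4 higher and 52 lower genes were past 4 times. Of the 33 higher genes, 12 were under 1 FPKM with DMSO, and of the 121 lower genes, 38 were under 1 FPKM with SAG. Such genes met the floor only through the arm where they were higher. The plot of gene levels in both arms marks 2 groups of genes, Hedgehog targets and interferon-stimulated genes with the Ifi200 family.

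**Figure D1:**
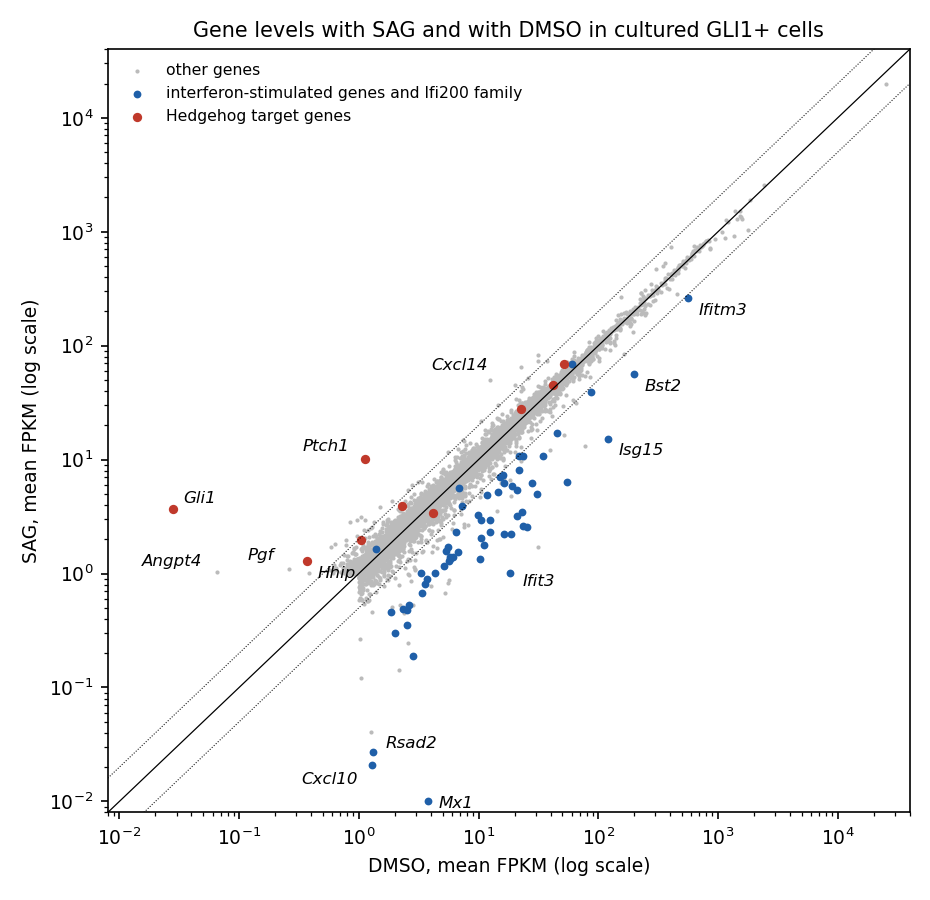
Mean FPKM with SAG (vertical axis, log scale) against mean FPKM with DMSO (horizontal axis, log scale) for the 10317 genes with a ratio, each point 1 gene; the solid line marks equal means and the dotted lines a difference of 2 times. Hedgehog target genes (red) include Gli1, Ptch1 and Hhip far above the line, and nearly all interferon-stimulated and Ifi200 genes (blue) lie below it.

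The spread of ratios depended on the level of the gene. Among 4001 genes between 1 and 5 FPKM in the higher group, 90% had log2 ratios between -0.45 and 0.42. Among the 1950 genes at 20 FPKM or more this range was -0.30 to 0.28. These ranges are over genes, not over libraries. Just inside the threshold were Tiam1 (3.14 FPKM with DMSO, 6.34 with SAG) and Adar (10.5 and 5.22). Just outside it were Gpnmb (1.25 and 2.50) and Wfikkn2 (1.74 and 0.875); these 4 genes were picked for their place at the threshold.

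Among the lists, Hedgehog target genes had the highest median ratio, with Gli1 and Hhip counted only through their SAG level. Gli1 (chr10:127329882-127341974, mm10), the transcription factor whose promoter drove the reporter used to sort the cells, was at 0.028 FPKM with DMSO and at 3.65 FPKM with SAG. That was the largest ratio of all genes, 130 times, and its size rests on the near-zero DMSO mean: with 0.1 FPKM added to both means the fold was 29.3, and with 1 FPKM it was 4.53. By level, Gli1 stood at rank 13900 of the listed genes in DMSO, and at rank 7216 in SAG. Ptch1 (chr13:63508328-63573598), the receptor for Hedgehog ligands, was at 1.13 FPKM with DMSO and 10.1 FPKM with SAG, 8.99 times higher. Hhip (chr8:79965851-80058006), a membrane protein that binds and sequesters the ligands, was at 0.368 and 1.28 FPKM, 3.48 times higher.

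Of 18 target genes listed, 17 were in the table, 9 had a ratio, 3 of these 9 were called higher (0.320% of all genes) and none lower. The median log2 ratio of the 9 was 0.77, against 0.06 over all genes. Gli1 and Hhip were among the 9 only through their SAG level, since both were under 1 FPKM with DMSO. Bcl2, an inhibitor of apoptosis, was at 1.04 and 1.98 FPKM, and Foxf2, a forkhead transcription factor of mesenchyme, at 2.31 and 3.94 FPKM, both short of 2 times. Cyclin D1 (Ccnd1) was at 51.9 and 69.7 FPKM, Ccnd2 at 42.0 and 45.5 FPKM, and Bmp4 at 22.4 and 27.7 FPKM. Osr1 was the only one of the 9 with a lower mean with SAG (4.16 and 3.37 FPKM).

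No gene among the ligands, co-receptors and transducers of the pathway passed 2 times in either direction. Of 26 genes listed, 23 were in the table, 19 had a ratio, and their median log2 ratio was 0.07. Smo, the target of SAG, was at 28.4 FPKM with DMSO and 31.4 FPKM with SAG. The co-receptor Gas1 came nearest to the threshold, with 164 FPKM in DMSO and 85.3 FPKM in SAG, 1.93 times lower. Its fellow co-receptors Boc (31.1 and 27.3 FPKM) and Cdon (10.5 and 11.5 FPKM) differed little. The transcription factor Gli2 was at 2.20 and 3.55 FPKM, and Gli3, which acts largely as a repressor, at 3.30 and 2.13 FPKM. Sufu, the inhibitor that holds GLI proteins in the cytoplasm, was at 4.52 and 4.46 FPKM. Of the ligands, Ihh was in the table at 0.00933 and 0.021 FPKM.

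Outside the pathway, the higher genes included secreted factors, membrane proteins and transcription factors. Angpt4, an angiopoietin that binds the endothelial receptor TIE2, was at 0.0657 FPKM with DMSO and 1.03 FPKM with SAG. Pgf, placental growth factor of the VEGF family, was at 0.260 and 1.11 FPKM. Both are low values, and with 1 FPKM added to both means neither stayed past 2 times (folds of 1.90 and 1.67). Cxcl14 (chr13:56288643-56296551), a chemokine, went with higher levels: 12.5 FPKM with DMSO and 49.9 FPKM with SAG. Fgf9, a growth factor, was at 1.51 and 3.80 FPKM.

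The 10 largest gains in FPKM among the higher genes were those of Steap4, Kcne4, Slc6a6, Cxcl14, Tmem256, Cpxm1, Cltb, Mid1ip1, Ptch1 and Hes1. Steap4, a metalloreductase, was at 31.5 FPKM with DMSO and 82.2 FPKM with SAG. Kcne4, a subunit of potassium channels, was at 22.8 and 65.5 FPKM. The taurine transporter Slc6a6 was at 31.3 and 72.9 FPKM. Hes1, a transcriptional repressor best known as a Notch target, was at 7.35 and 15.0 FPKM. Lepr, the leptin receptor and the one higher gene among 15 mesenchymal stromal surface markers, was at 1.04 and 3.11 FPKM. Foxc2 (2.57 and 5.41 FPKM), a forkhead transcription factor, was also higher and was chosen after its values were seen.

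The list of angiogenic and guidance factors, which also counts the transcriptional repressor Hes1, held 4 of the 33 higher genes. Of 30 with a ratio, Angpt4, Pgf, Fgf9 and Hes1 were called higher (0.320% of all genes) and Angptl4 lower (1.17%), and the median log2 ratio was 0.24. Angpt4 and Pgf were under 1 FPKM with DMSO and met the floor only through their SAG level. Angptl4, a secreted inhibitor of lipoprotein lipase, was at 18.5 FPKM with DMSO and 4.78 FPKM with SAG. Vegfa, the main endothelial growth factor, was at 15.6 and 19.5 FPKM and did not pass. Of the BMP and TGF-beta pathway, Id4 alone was called higher (1.19 and 2.41 FPKM) among 24 genes with a ratio.

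Interferon-stimulated genes made up the largest group of lower genes. Of 55 with a ratio among 62 listed, 51 (92.7%) were called lower and none higher, against 1.17% called lower over all genes. Their median log2 ratio was -2.11. Summed over the 55 genes, the means came to 1717 FPKM with DMSO and 620 FPKM with SAG. The lists of interferon-stimulated genes, the Ifi200 family and antigen presentation together hold 63 of the 121 lower genes (52.1%) and none of the 33 higher ones.

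The most abundant members gave the largest losses in FPKM. Ifitm3 (chr7:141009586-141010770), a membrane protein that blocks viral entry, was at 565 FPKM with DMSO and 261 FPKM with SAG. Bst2, known as tetherin because it holds budding virus at the cell surface, was at 198 and 56.3 FPKM. Isg15 (chr4:156199424-156200818), a ubiquitin-like protein joined to other proteins in the interferon response, was at 120 and 15.2 FPKM. These 3 genes ranked 47, 148 and 239 of all listed genes by level in DMSO, and 117, 558 and 2506 in SAG. Lgals3bp, a secreted glycoprotein, was at 87.5 and 39.0 FPKM.

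The largest ratios belonged to members that were nearly absent with SAG. Mx1, a dynamin-like GTPase that acts against RNA viruses, was at 3.82 FPKM with DMSO and 0.01 FPKM with SAG, the lowest ratio of all genes. Cxcl10, a chemokine for activated T cells, was at 1.29 and 0.0207 FPKM, and Rsad2, which encodes viperin, at 1.32 and 0.027 FPKM. With 0.1 FPKM added to both means these 3 were 35.6, 11.5 and 11.2 times lower. The folds of the most abundant members depended less on such an addition: Isg15 was 7.88 times lower without it and 7.84 times lower with it.

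By family, chosen after the values were seen, the loss was broad. The 3 Ifit genes, which bind viral RNA, were 2.80 to 18.3 times lower, with Ifit1 at 54.8 and 6.42 FPKM and Ifit3 at 18.4 and 1.01 FPKM. The 3 oligoadenylate synthetases with a ratio were 4.14 to 14.9 times lower. All 6 RNA and DNA sensors were lower by 2.19 to 7.30 times, among them Ddx58 (RIG-I, 16.4 and 6.28 FPKM), Ifih1 (MDA5, 5.33 and 1.57 FPKM) and Zbp1 (16.3 and 2.23 FPKM). The 5 guanylate-binding proteins were lower by 3.26 to 8.47 times and the 7 immunity-related GTPases by 3.24 to 9.92 times; members of both families attack vacuoles that hold parasites or bacteria. Among these, Irgm1 was at 34.7 and 10.7 FPKM and Gbp2 at 19.1 and 5.85 FPKM.

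The transcription factors of the interferon response were lower as well, while the receptors and kinases above them were level. Stat2 was at 21.9 FPKM with DMSO and 8.07 FPKM with SAG, Irf9 at 21.8 and 10.8 FPKM, and Irf7 at 30.9 and 5.02 FPKM. Irf1 did not pass (6.83 and 5.68 FPKM), and neither did 3 more of the 55: Trim25 (7.34 and 3.88 FPKM), Ifi27 (60.5 and 69.1 FPKM) and Ifitm1 (1.39 and 1.66 FPKM). None of 12 interferon ligands, receptors and kinases with a ratio passed in either direction, with a median log2 ratio of -0.04. Ifnar1 was at 9.34 and 9.83 FPKM, Ifnar2 at 22.6 and 20.9 FPKM and Jak1 at 24.8 and 24.1 FPKM.

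The Ifi200 family encodes sensors and regulators that bind DNA. Its 6 members with a ratio were all lower (1.17% of all genes), by log2 ratios of -1.72 to -2.72. Ifi203, Ifi205 and Mndal were under 1 FPKM with SAG and met the floor only through their DMSO level. Ifi204 was at 5.74 FPKM with DMSO and 1.39 FPKM with SAG, and Mnda at 5.75 and 1.35 FPKM. Members of such families resemble each other in sequence, so the share of reads assigned to each is uncertain, which was not tested. The same holds for the Gbp, Tgtp, Trim30 and Trim34 genes.

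Against 1.17% of all genes, 6 of 14 antigen presentation genes with a ratio were lower. They were the immunoproteasome subunits Psmb8 (14.3 and 3.56 FPKM), Psmb9 (5.76 and 1.31 FPKM) and Psmb10 (15.4 and 6.26 FPKM), the peptide transporter Tap1 (14.6 and 5.31 FPKM), and the class I genes H2-Q4 (16.5 and 6.89 FPKM) and H2-T23 (64.9 and 31.4 FPKM). The class I light chain B2m (243 and 193 FPKM), H2-D1 (101 and 77.8 FPKM) and H2-K1 (30.6 and 18.4 FPKM) did not pass. At a fold of 1.5 the count of lower genes in this list was 10, against 2.44% of all genes.

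**Figure D2:**
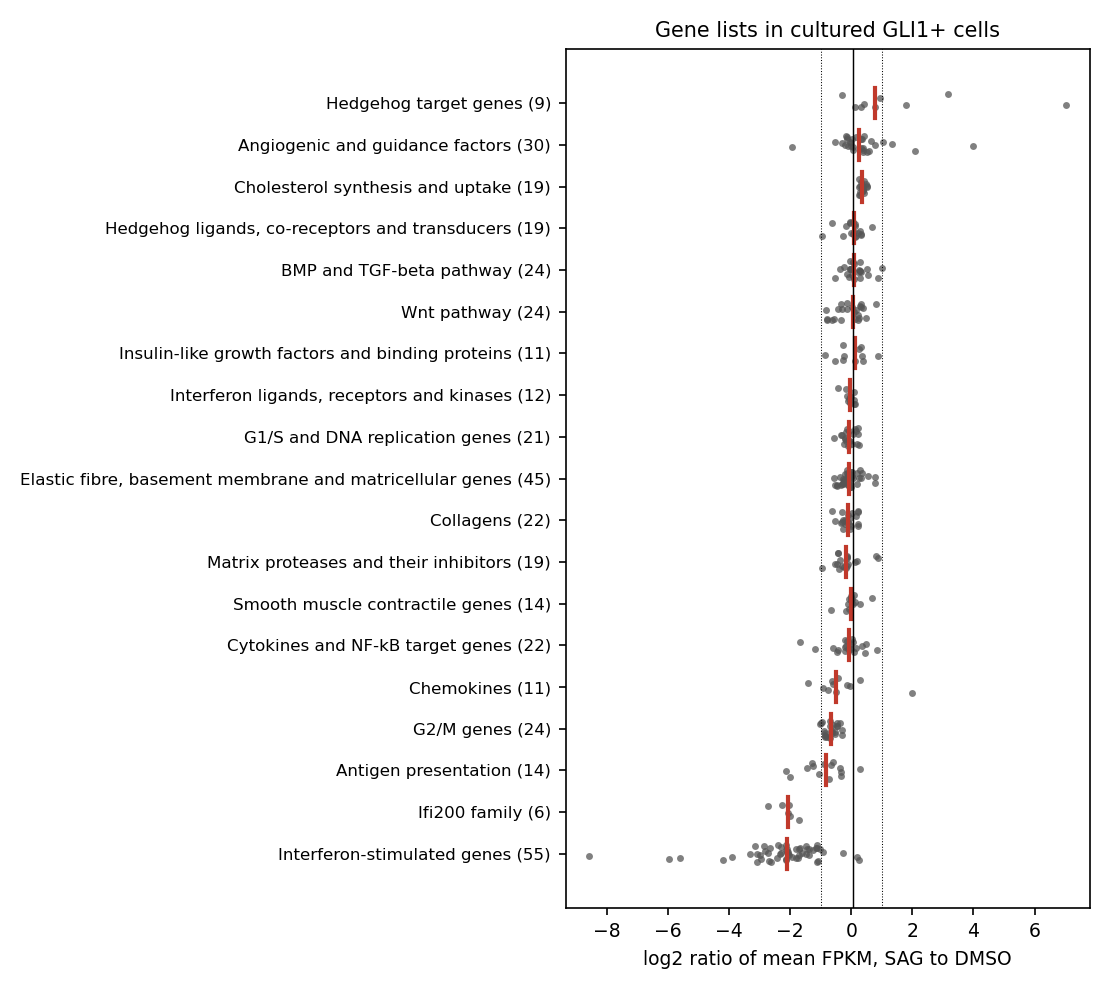
Log2 ratio of mean FPKM, SAG to DMSO, for the members of 19 gene lists; each point is 1 gene, the red bar is the median, the number of genes with a ratio stands in parentheses, the solid line is the median of all genes and the dotted lines mark 2 times. Interferon-stimulated genes, the Ifi200 family and antigen presentation lie to the left, with medians of -2.11, -2.07 and -0.82, and Hedgehog target genes to the right with a median of 0.77.

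Promoter sequence, which had no part in choosing these genes, differed between the lower genes and the rest. The core of the interferon-stimulated response element, GAAA, any 2 bases and GAAA again (TTTC, any 2 bases and TTTC on the other strand), was searched in RefSeq windows (GRCm38.p6) from 250 bases before to 50 bases after each annotated start. It was found in 37 of 104 windows of lower genes (35.6%), in 267 of 10032 windows of genes past neither threshold (2.66%), and in 1 of 28 windows of higher genes. Lower genes in the interferon, Ifi200 or antigen presentation lists had it in 30 of 55 windows (54.5%). Lower genes in none of these lists had it in 7 of 49 windows (14.3%). Over all 32851 windows the share was 3.44%. Windows were held for 86 of the 121 lower and 22 of the 33 higher genes. Read the other way, 294 genes with a ratio had the core in a window, and 35 of them (11.9%) were lower. Below are stretches from the 8 lower genes with the greatest fold among those with a core wholly before the start, printed because they show the shared letters; capitals mark the core.
Cxcl10, chr5:92349073-92349122, minus strand: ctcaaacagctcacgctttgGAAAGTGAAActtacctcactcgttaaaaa
Rsad2, chr12:26456543-26456592, minus strand: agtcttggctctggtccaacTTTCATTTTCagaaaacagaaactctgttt
Gm12250, chr11:58183777-58183826, plus strand: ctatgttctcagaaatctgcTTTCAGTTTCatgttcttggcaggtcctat
Ifit3, chr19:34583387-34583436, plus strand: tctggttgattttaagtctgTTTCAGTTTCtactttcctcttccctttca
Oas1a, chr5:120907526-120907559, minus strand: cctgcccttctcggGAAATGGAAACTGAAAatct
Ifit1, chr19:34640784-34640833, plus strand: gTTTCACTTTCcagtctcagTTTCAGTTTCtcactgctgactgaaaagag
Gbp3, chr3:142559985-142560034, plus strand: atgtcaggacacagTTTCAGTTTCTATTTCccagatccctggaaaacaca
Isg15, chr4:156200855-156200904, minus strand: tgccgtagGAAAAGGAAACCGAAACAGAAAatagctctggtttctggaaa

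In the 27 lower genes with a core wholly before the start, the median distance from the core's end to the start was 54 bases, with a range of 4 to 212, in windows that reach 250 bases before the start. Isg15 held 3 cores, each overlapping the next, and Gm12250, Ifit3, Oas1a, Ifit1 and Gbp3 held 2 each, of which the stretches of Gm12250 and Ifit3 show 1. A match describes the letters only and shows neither binding nor a cause. Lower genes with the core in a window (35 genes) had a median fold of 4.21, and lower genes with a window but without the core (51 genes) had a median of 2.68. The gamma-activated site TTCNNNGAA, which reads the same on both strands, was found in 18.3% of windows of lower genes and 6.46% of windows of genes past neither threshold. It overlapped a response element core in 24 of all 32851 windows.

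Some of these promoter stretches matched each other closely. The pair below from the immunity-related GTPases matched at 48 of 50 bases, and the stretches of Ifi203 and Mndal matched at all 50. Capitals again mark the core.
Igtp, chr11:58199502-58199551, plus strand: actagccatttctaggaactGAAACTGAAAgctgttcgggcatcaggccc
Irgm2, chr11:58214893-58214942, plus strand: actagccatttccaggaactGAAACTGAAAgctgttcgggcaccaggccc
Ifi203, chr1:173942498-173942547, minus strand: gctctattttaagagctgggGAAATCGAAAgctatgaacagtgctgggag
Mndal, chr1:173880194-173880243, minus strand: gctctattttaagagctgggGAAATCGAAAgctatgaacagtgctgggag

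Among the higher genes, the only window with the core was that of Cxcl14, in the stretch printed here to set it beside the lower genes.
Cxcl14, chr13:56296694-56296743, minus strand: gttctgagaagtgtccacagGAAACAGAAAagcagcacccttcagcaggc
The GLI binding site GACCACCCA, TGGGTGGTC on the other strand, was in 1 window of the higher genes, that of Cltb (14.5 FPKM with DMSO and 30.5 FPKM with SAG), in none of the lower genes, and in 0.253% of all windows. The windows of Ptch1 and Hhip did not hold these letters, and Gli1 was not analysed here for lack of a window in the table used.

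The lower genes also clustered along the genome. Of 116 lower genes placed by symbol in the GENCODE vM21 annotation of mm10, 52 (44.8%) had another lower gene within 100 kb, against 2.90% of the other genes with a ratio. The spans named next run from the first to the last of a chain of lower genes with gaps of up to 100 kb. Their shares of lower genes are thus largely set by how they were drawn, and they serve to locate the genes. On chr1:173747293-174031810 all 5 genes with a ratio were lower (Ifi204, Mndal, Ifi203, Ifi202b and Ifi205). On chr3:142493978-142638008 the same held for 4 of 4 guanylate-binding protein genes, and on chr19:34550694-34650009 for the 3 Ifit genes. On chr11:48861968-49096974, 5 of 6 genes were lower, among them Irgm1, Tgtp1, Tgtp2 and Ifi47. None of the 31 higher genes placed had another higher gene within 100 kb, against 0.611% of the other genes with a ratio. With so few higher genes, these shares cannot be told apart.

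The other 58 lower genes lay outside those 3 lists. Several are known interferon-induced genes that the lists did not hold, such as Sp110 (2.57 and 0.244 FPKM) and the predicted GTPase gene Gm12250 (1.28 and 0.0407 FPKM). Crabp1, which binds retinoic acid in the cytoplasm, was at 52.1 FPKM with DMSO and 16.3 FPKM with SAG. Its relative Crabp2, chosen after its values were seen, was at 22.8 and 9.74 FPKM. Of 11 chemokines with a ratio, 5 were at least 1.5 times lower (2.44% of all genes), and the median log2 ratio was -0.50. Ccl2, which recruits monocytes, was past 2 times (2.93 and 1.08 FPKM), and Cxcl12, which had the highest level of the list, was at 173 and 167 FPKM. Among cytokine and NF-kB target genes, 2 of 22 were lower (1.17% of all genes): Il1rl1, the IL-33 receptor (2.75 and 0.860 FPKM), and Tlr3, a sensor of double-stranded RNA (4.67 and 2.03 FPKM). Of 13 complement genes, 1 was lower, against the same 1.17%: Cfb (7.63 and 2.74 FPKM).

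Mitotic genes shifted together by less than 2 times. All 24 G2/M genes with a ratio had a lower mean with SAG, against 32.1% of all genes, with a median log2 ratio of -0.68. Plk1, a mitotic kinase, was called lower (2.68 and 1.31 FPKM), and 16 of the 24 were past 1.5 times, against 2.44% of all genes. Cdc20 and Ube2c, which act in the destruction of mitotic proteins, were at 4.83 and 2.68 FPKM and at 5.92 and 3.78 FPKM. These are low levels in both arms. The G1/S and DNA replication list had no gene past 1.5 times in either direction among 21, and a median of -0.07. Whether fewer dividing cells or less transcript per cell gave such means cannot be told apart in bulk RNA.

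Cholesterol synthesis and uptake genes had slightly higher means with SAG. All 19 with a ratio had a higher mean with SAG, against 67.9% of all genes, none passed 1.5 times, and their log2 ratios lay between 0.25 and 0.53 with a median of 0.36. Hmgcs1, which acts early in the pathway, was at 15.8 and 20.2 FPKM and Insig1, which restrains the pathway, at 21.3 and 30.3 FPKM.

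Genes of the matrix and of contraction differed little. None of 22 collagens, 45 other matrix genes, 19 matrix proteases and inhibitors or 14 contractile genes with a ratio passed 2 times, and the 4 medians lay between -0.17 and -0.01. Col1a1 was at 1555 FPKM with DMSO and 1353 FPKM with SAG and Acta2 at 335 and 356 FPKM. None of 24 Wnt pathway and 11 insulin-like growth factor genes passed either. The Wnt antagonist Sfrp2, the most abundant of its list, was at 1791 and 1031 FPKM. Of the insulin-like growth factor binding proteins, Igfbp2, the most abundant with DMSO, was at 859 and 720 FPKM and Igfbp4 at 405 and 737 FPKM. Timp3, an inhibitor of matrix proteases, was at 154 and 270 FPKM. Of 12 secreted factors known to act on mast cells or melanocytes, none passed, with a median of 0.05.

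The remaining lists gave few calls. None of 7 cyclin-dependent kinase inhibitors, 17 immediate-early, 4 osteogenic and 6 adipogenic genes with a ratio passed 2 times in either direction.

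In vehicle, the cultured cells had the markers of stromal cells. All 7 stromal markers were above 10 FPKM, among them Pdgfra at 39.2 FPKM and Col1a1 at 1555 FPKM. No endothelial, RPE, melanocyte, hematopoietic, mast or Schwann cell marker reached 10 FPKM. Pecam1 and Cdh5, which define endothelium, were at 0.143 and 0.068 FPKM, Rpe65 at 0.496 FPKM and Ptprc, the pan-leukocyte gene, at 0.00233 FPKM. At 1 FPKM or more were 3 of 10 endothelial, 3 of 7 listed RPE, 3 of 7 listed Schwann cell and 1 of 11 hematopoietic markers. The highest of these lists, in the same order, were Emcn (5.21 FPKM), Ttr (3.33 FPKM), Cnp (4.57 FPKM) and Lyz2 (2.08 FPKM). No melanocyte or mast cell marker reached 1 FPKM. Of 7 mast cell markers 5 were listed at 0. Of 10 smooth muscle and pericyte markers, Acta2 and Tagln (277 FPKM) were above 10 FPKM, while Myh11 was at 0.897 FPKM and Rgs5 at 0.321 FPKM. Summed over each list the levels were alike in both arms: stromal markers came to 5049 FPKM with DMSO and 4468 with SAG, endothelial markers to 9.70 and 10.9, hematopoietic markers to 2.55 and 3.21, and RPE markers to 8.16 and 10.3.

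The cultured cells were then set beside single cells of the RPE/choroid, for which 1 library was made from B6129PF1/J and 1 from C57BL/6J mice aged 3 months. Molecule counts (UMIs) were summed over the authors' 13 clusters and expressed per 10000; cells are not replicates, and the libraries shared 22 cell barcodes. Across 14128 genes, the DMSO means ranked most like cluster 7 of the stromal cells, with a Spearman rho of 0.82 in the B6129PF1/J and 0.81 in the C57BL/6J library. The other stromal clusters followed (0.80 for cluster 5, 0.78 for cluster 8 and 0.77 for cluster 6 in B6129PF1/J), then smooth muscle cells (0.74). Hematopoietic cells were lowest, at 0.60 and 0.62. The points share 1 set of culture values, and clusters with few cells, such as 16 melanocytes in B6129PF1/J, have more genes without a UMI. FPKM is per length of transcript and UMI counts are not.

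**Figure D3:**
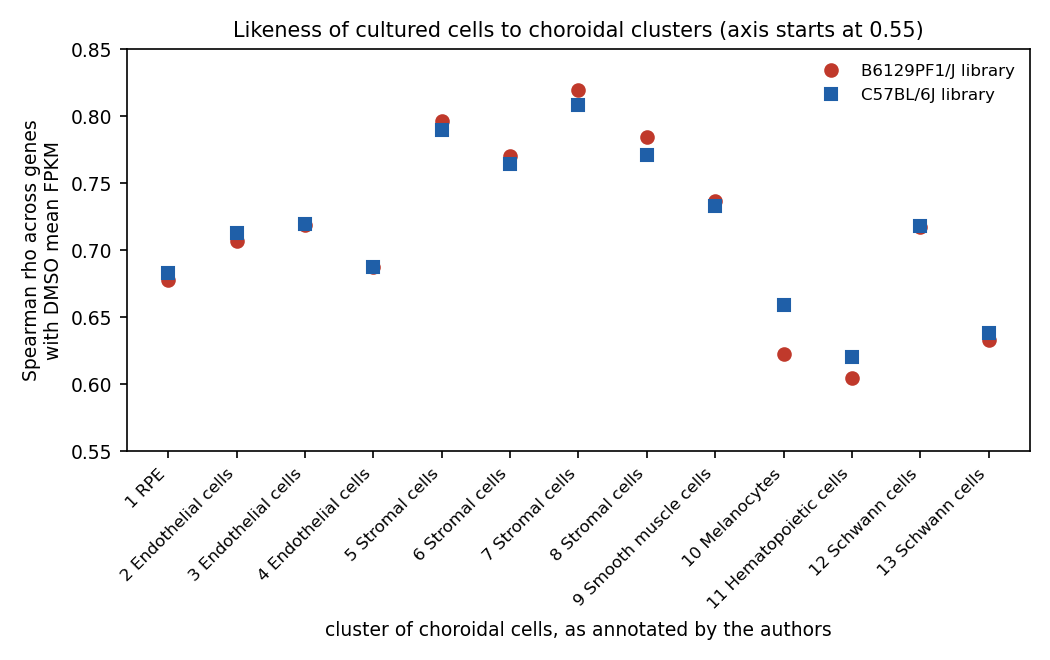
Spearman rho across 14128 genes between the DMSO mean FPKM and the summed UMIs per 10000 of each of 13 clusters (horizontal axis, with the authors' cell type), by library; the vertical axis starts at 0.55. Clusters 5 to 8, the stromal cells, are the 4 highest in both libraries and cluster 7 is at the top.

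Genes that set 1 stromal cluster apart from the other 3 were kept to unlike degrees in culture. Of 46 listed genes at least 3 times higher in cluster 7 in both libraries, 40 (87.0%) were at 1 FPKM or more with DMSO, with a median of 21.7 FPKM. Of 110 genes of cluster 6, 71 (64.5%) were, with a median of 1.66 FPKM. Over all genes with the same minimum of 0.5 UMIs per 10000 in a stromal cluster the share was 95.8%, with a median of 17.4 FPKM. For cluster 7, S100a6 was at 527 FPKM and Mfap5, of elastic microfibrils, at 44.1 FPKM, while Pi16 was at 3.18 FPKM and Myoc at 0.154 FPKM. Myoc was chosen after its value was seen. For cluster 6, Myl9 was at 200 FPKM, Aspn at 109 FPKM and Spp1 at 10.7 FPKM, while Rgs5 was at 0.321 FPKM. Clusters 5 and 8 had 1 listed gene each by this rule, Pappa2 at 1.35 FPKM and Col15a1 at 0.151 FPKM. With SAG, 1 of 74 cluster 6 genes and 1 of 40 cluster 7 genes with a ratio were higher, and the same number lower. Over all genes 0.320% were higher and 1.17% lower.

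Of the 238 genes at 5 or more UMIs per 10000 over clusters 5 to 8 in both libraries, 234 (98.3%) reached 1 FPKM in culture. The 4 that did not were Rgs5, Edn3, Pgf and Fosb, named after their values were seen. Pgf had 7.59 UMIs per 10000 in the stromal cells of B6129PF1/J (95% exact Poisson interval 7.38 to 7.80, which covers counting error only) and 8.60 in C57BL/6J, but 0.260 FPKM in culture with DMSO and 1.11 FPKM with SAG. Gli1 had 0.272 UMIs per 10000 in the same cells of B6129PF1/J (0.234 to 0.314) and 0.251 in C57BL/6J (0.212 to 0.296). Both genes thus gave UMIs in freshly isolated stromal cells and stood under 1 FPKM in culture with DMSO.

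Genes higher with SAG were often highest in stromal clusters of the tissue. Of 29 higher genes with UMIs, 13 (44.8%) had their highest level in 1 of clusters 5 to 8 in B6129PF1/J, against 20.4% of all genes with a ratio, and 11 of 29 in C57BL/6J (37.9%), against 21.9%. Gli1 and Hhip were highest in cluster 7 or 8, Pgf in cluster 5, and Steap4 and Kcne4 in cluster 6 in both libraries. Ptch1 was highest in the Schwann cells of cluster 12 in B6129PF1/J and in cluster 7 in C57BL/6J. Cxcl14 gave only 22 UMIs in the stromal cells of B6129PF1/J and none in those of C57BL/6J, where 0 counts allow up to 0.00643 UMIs per 10000 (upper end of the same interval). Lower genes were highest in clusters 5 to 8 in 18 of 106 cases (17.0%) and in hematopoietic cells in 28 (26.4%), against 5.84% of all genes, in B6129PF1/J.

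The loss of Hedgehog signal in tissue can be read beside its gain in culture. RPE/choroid was taken from C57BL/6J mice aged 6 months, 12 weeks after tamoxifen, with Ihh deleted in endothelium by a Cre under the Cdh5 promoter (3 libraries) or with both Ihh alleles intact (Ihh+/+, 3 libraries), and the Cre and tamoxifen are shared by both groups. The culture and tissue comparisons share no samples, and their tables were normalized separately. Of the 26 genes higher with SAG that reached 1 FPKM in tissue, 18 (69.2%) had a lower mean in the deletion, against 61.4% of 9696 genes with both ratios, and 8 were at least 1.5 times lower, against 1.43%. The median log2 ratio of deletion to Ihh+/+ was -0.31 for these 26 genes and -0.04 over all.

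Gli1, Hhip and Cxcl14 had the lowest ratios of deletion to Ihh+/+ tissue among these 26. Gli1 was at 9.40 FPKM in Ihh+/+ and 3.15 FPKM in deletion tissue, Hhip at 1.05 and 0.346 FPKM, Cxcl14 at 4.11 and 1.18 FPKM and Ptch1 at 7.69 and 4.98 FPKM. Cpxm1, a carboxypeptidase-like protein, was at 18.3 and 8.37 FPKM there, and at 20.3 and 45.2 FPKM with DMSO and SAG in culture. Lepr was at 1.08 and 0.605 FPKM in tissue. Others did not follow: Slc6a6 was at 79.3 and 82.0 FPKM, Kcne4 at 2.72 and 2.74 FPKM and Hes1 at 28.8 and 30.0 FPKM. Reln, chosen after its values were seen, was at 0.106 FPKM in Ihh+/+ and 1.70 FPKM in deletion tissue.

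**Figure D4:**
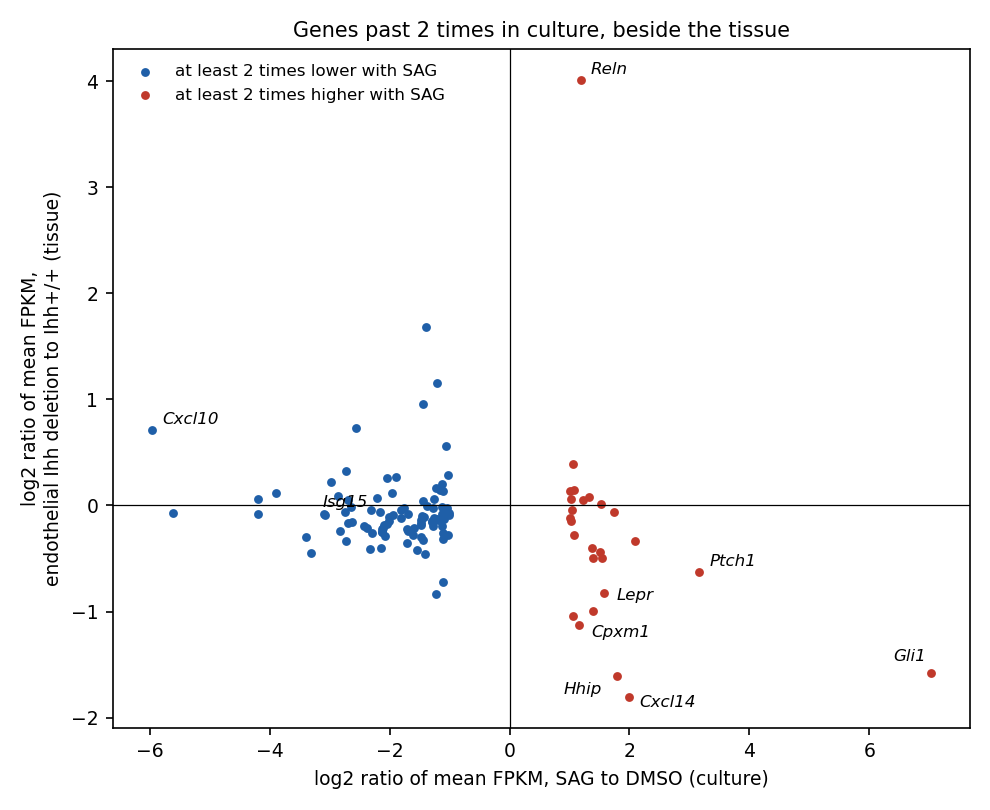
Log2 ratio of mean FPKM in deletion to Ihh+/+ tissue (vertical axis) against the log2 ratio with SAG to DMSO in culture (horizontal axis) for the 117 genes past 2 times in culture and at 1 FPKM or more in tissue. Gli1, Ptch1, Hhip, Cxcl14, Cpxm1 and Lepr lie at the lower right, while nearly all genes lower with SAG (blue) lie close to 0 in tissue.

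Most genes lower with SAG also had a lower mean in deletion tissue. This held for 68 of 91 with both ratios (74.7%, against 61.4% of all genes), with a median log2 ratio of -0.11. Of the 91, 5 were at least 1.5 times higher there (0.990% over all genes) and 2 at least 1.5 times lower (1.43% over all genes). Ifi202b, under the 1 FPKM floor in tissue and so not among the 91, was at 0.021 FPKM in Ihh+/+ and 0.723 FPKM in deletion tissue. In the single-cell libraries Ifi202b gave 37 UMIs in B6129PF1/J and none in C57BL/6J. Whether genetic background had a part in its tissue values was not tested. The interferon-stimulated genes gave 42 of 50 (84.0%, against the same 61.4%) with a lower mean in deletion tissue, a median of -0.12 and 1 past 1.5 times, Cxcl10, which was higher there at 1.39 FPKM. Isg15 was at 5.46 and 6.35 FPKM in tissue.

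Most interferon-stimulated genes were above their tissue level in vehicle, and with SAG they lay on both sides of it. Of the same 50 genes, 35 were at least 2 times higher in DMSO culture than in Ihh+/+ tissue (16.3% over all genes) and 4 in SAG culture (16.5% over all genes). With SAG, 14 of the 50 were at least 2 times below the tissue level, against 1107 of all 9696 genes. Above it by any amount were 21 of the 50, against 5890 of the 9696. The median of the 50 was 13.5 FPKM with DMSO, 3.09 FPKM with SAG and 3.81 FPKM in Ihh+/+ tissue. Irf7 was at 30.9, 5.02 and 4.94 FPKM in this order and Ifit1 at 54.8, 6.42 and 3.29 FPKM. Ifit3, 1 of those 14, was at 18.4, 1.01 and 23.4 FPKM. Strain, cell mixture and normalization differ between culture and tissue, and their part in these levels was not tested. Gli1 had the reverse order, at 0.028 FPKM with DMSO, 3.65 FPKM with SAG and 9.40 FPKM in Ihh+/+ tissue. Of the 9 Hedgehog targets, 3 were above their Ihh+/+ tissue level with DMSO and 5 with SAG. Over all 9696 genes with both ratios, 5598 were above it with DMSO and 5890 with SAG.

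**Figure D5:**
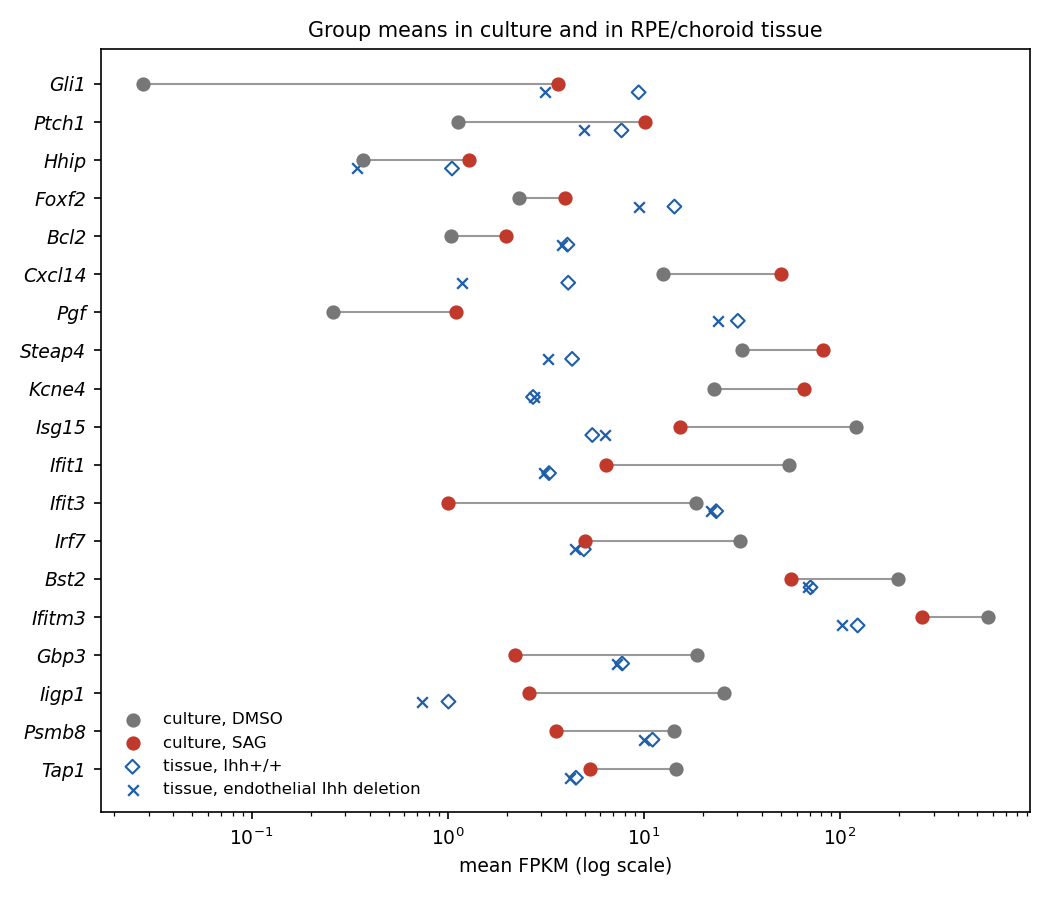
Mean FPKM (horizontal axis, log scale) of 19 genes in culture with DMSO (grey) and SAG (red) and in tissue of Ihh+/+ (open diamonds) and endothelial Ihh deletion mice (crosses). Gli1, Ptch1 and Hhip are below the Ihh+/+ level with DMSO and nearer to it or above it with SAG, and Irf7 and Bst2 are above it with DMSO and near it with SAG.

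A few entries of the table are short RNAs, whose FPKM is unstable because the length is small. Mir5133 had 25366 FPKM with DMSO, 10.7% of the sum over all genes, and 19680 FPKM with SAG. Mir6236 was among the lower genes (77.8 and 13.2 FPKM). Of 8 genes past 1 FPKM in 1 arm and listed at 0 in the other, all carry the name of a snoRNA or miRNA gene, such as Snora64, which was listed at 0 with DMSO and at 44.8 FPKM with SAG.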

How the data were processed

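RNA-seq libraries of cultured GLI1+ cells and of RPE/choroid tissue were aligned by the authors with STAR (version 2.4.0f1), and FPKM were computed with Cufflinks (version 2.0.2) on mm10, per the labels; SAMtools (version 0.1.19) was also named. The deposited tables hold the authors' mean FPKM of each group, with their own fold changes and adjusted p-values, which were not used. Whether reads were assigned by strand is not given in the sources used here. The deposited single-cell tables hold raw UMI counts per gene and cell with the authors' clusters; doublets were not removed here. Depth of the bulk libraries is unknown: 99.9% of DMSO means were whole multiples (within 0.01 of a step) of the step that averaging 3 values rounded to 3 decimals gives. UMIs summed per cluster ranged from 88799 to 3175677.

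From the means, the ratio of SAG to DMSO was taken with Python 3.11, pandas 2.3.3 and scipy 1.17.1, for genes that were above 0 in both arms and reached 1 FPKM in one; differences of at least 2 times were called. Since no library values were used, no test was run. The code for the ratio and the calls was tested on simulated data, which bears on the code and not on false calls in these data. Symbols of 16691 of 17623 genes matched GENCODE vM21.

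Genes named were the Hedgehog genes, the 15 largest and 15 smallest ratios, the 10 largest differences in each direction, members of each list past 2 times with up to 4 of the most abundant others, the 10 highest in DMSO, up to 5 genes per stromal cluster and the 5 highest genes listed at 0 in 1 group. A few genes of these lists are not reported here by name. The lists and members were chosen with earlier results of these data known. Alternatives were other floors, pseudocounts, folds, a scaling to equal medians, the other single-cell library and a higher tissue floor.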

Additional observations from a re-analysis of the deposited data

How the results depend on the processing

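No paired analysis was possible because the tables hold only group means, and for the same reason no library could be left out. The 33 higher genes became 14 with a floor of 5 FPKM, 476 without a floor, 18 with 1 FPKM added, 136 at a fold of 1.5 and 8 at a fold of 3. The 121 lower genes became 70, 645, 87, 252 and 68 in the same order. Higher genes were 21.4% of all calls, 42.5% without a floor, 35.1% at a fold of 1.5 and 10.5% at a fold of 3. With 0.1 FPKM added, the counts were 38 higher and 114 lower, and with both arms scaled to the same median, 26 and 131. Without small RNA genes, an alternative chosen after seeing the data, they were 33 and 120.

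The 51 lower interferon-stimulated genes ranged from 39 to 58 over these settings. Hedgehog targets went from 3 higher genes to 1 with the floor of 5 FPKM, 6 without a floor and 5 at a fold of 1.5. Angiogenic factors went from 4 to 1 with the floor of 5 FPKM, 0 with 1 FPKM added and 2 at a fold of 3. The Ifi200 family went from 6 to 2 with the floor of 5 FPKM, and antigen presentation from 6 to 10 at a fold of 1.5 and 2 at a fold of 3. G2/M genes went from 1 lower gene to 0 with the floor of 5 FPKM, with either pseudocount and at a fold of 3, to 2 without a floor, 3 after scaling and 16 at a fold of 1.5. Genes of cluster 6 went from 110 to 190 when at least 2 times sufficed, since that admits more genes. Cluster 7 ranked highest in each library and with SAG values. Of 177 single genes compared, each past 1.5 times or a Hedgehog target, 57 lost a call of 2 times with 1 FPKM added, 10 with 0.1 FPKM and 7 after scaling, and none changed sign with a call.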
